A study of Mus musculus with 8 samples.

Results

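The genes described here tune how Notch receptors answer to their Delta and Jagged ligands. They are the Fringe glycosyltransferases Lfng, Mfng and Rfng, the O-glycosyltransferases Pofut1 and Poglut1, and the Mindbomb ubiquitin ligases Mib1 and Mib2. They were taken by name from the deposited table, as 7 of its 49585 listed genes, and each had reads in all 8 libraries.

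RNA was sequenced from the brachiocephalic artery, the first branch of the aortic arch, of ApoE-deficient mice that were put on a high-fat diet at 12 weeks of age to form plaques. In 4 samples the mice were injected into the peritoneum with the Dll1 blocking antibody, clone HMD1-5, at 250 micrograms, 2 times per week. In the other 4 samples they received non-immune IgG at the same dose and schedule, so every mouse carried the ApoE deficiency and ate the same diet. The labels give neither sex nor age at sampling, nor whether each sample is its own animal, so the p-values below speak only to the variation among these 8 libraries, part of which may be technical.

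Notch receptors carry sugars on the EGF-like repeats that touch the ligand. Pofut1 adds O-fucose and Poglut1 adds O-glucose in the endoplasmic reticulum, and the Fringe enzymes then extend the O-fucose with N-acetylglucosamine in the Golgi, which in cell assays strengthens the answer to Delta ligands and, for Lfng and Mfng, weakens the answer to Jag1. In the cell that presents the ligand, Mindbomb proteins attach ubiquitin to Delta and Jagged, and the endocytosis that follows pulls on the receptor and lets it be cleaved. In arteries, signalling from the endothelium to Notch receptors on smooth muscle helps to set the state of the smooth muscle cells.

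Promoter sequences are shown because Lfng is itself a Notch target in the mouse presomitic mesoderm. Whether any of these promoters answers to the antibody was not tested. RefSeq, on build GRCm38.p6, gave a window of 250 bases before to 50 bases after the start site for 5 of the 7 genes, Mfng and Mib1 not among them. Each window below reads 5′ to 3′ on the gene's strand, with capitals marking TGGGAA, the core of the motif of the Notch effector RBPJ, or its reverse complement TTCCCA. The Lfng window is chr5:140607091-140607390 on the plus strand, the Poglut1 window is chr16:38550207-38550506 on the minus strand and the Rfng window is chr11:120784155-120784454 on the minus strand.
Lfng: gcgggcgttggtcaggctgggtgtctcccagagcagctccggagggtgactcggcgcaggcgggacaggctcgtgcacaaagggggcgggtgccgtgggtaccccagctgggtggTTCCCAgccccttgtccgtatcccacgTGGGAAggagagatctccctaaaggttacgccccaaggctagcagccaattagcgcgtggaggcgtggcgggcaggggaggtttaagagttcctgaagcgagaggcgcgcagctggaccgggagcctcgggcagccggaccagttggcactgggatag
Poglut1: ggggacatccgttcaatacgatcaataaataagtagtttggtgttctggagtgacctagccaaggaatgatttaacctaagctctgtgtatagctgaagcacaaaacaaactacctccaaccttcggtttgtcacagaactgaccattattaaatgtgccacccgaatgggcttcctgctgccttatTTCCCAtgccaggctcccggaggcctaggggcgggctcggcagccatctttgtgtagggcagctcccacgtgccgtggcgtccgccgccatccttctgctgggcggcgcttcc
Rfng: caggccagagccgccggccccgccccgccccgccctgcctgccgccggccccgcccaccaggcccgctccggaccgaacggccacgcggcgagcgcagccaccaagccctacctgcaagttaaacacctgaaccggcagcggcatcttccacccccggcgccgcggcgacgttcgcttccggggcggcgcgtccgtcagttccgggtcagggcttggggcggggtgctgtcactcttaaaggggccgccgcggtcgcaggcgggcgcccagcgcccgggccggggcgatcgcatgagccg
The Lfng window held 2 matches, beginning 135 and 108 bases before the start site, and the second was preceded by G, making GTGGGAA. The Poglut1 window held 1 match, 63 bases before the start site. The letters TGGGAA, on either strand, were not in the windows of Rfng, Pofut1 or Mib2. Of 32851 windows of the same length, 25.6% held TGGGAA on either strand and 6.38% held GTGGGAA or its reverse complement TTCCCAC, which overlaps the shorter motif. These matches describe the letters of the windows and say nothing of binding.

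The 8 libraries carry a set number, 076 or 045, in their column names, and the labels do not explain these numbers. Set 076 held antibody libraries D1IA and D2IA and IgG libraries G1IA and G2IA, and set 045 held another pair of antibody libraries with the names D1IA and D2IA and IgG libraries C1IA and C2IA. Reads recovered from the TPM steps (TPM is a length-adjusted share of transcripts) numbered 11433613 to 13858981 per library, but reads on nuclear protein-coding genes numbered 7422343 to 8070921 in set 076 and 663099 to 2729071 in set 045. The share of TPM on protein-coding genes was 21.2% to 24.2% for set 076 but 0.848% to 3.10% for set 045. Levels below are therefore given on the protein-coding scale, that is, TPM rescaled so that nuclear protein-coding genes sum to 1000000 in each library. The labelled tissue was checked by 5 smooth muscle markers (Acta2, Myh11, Tagln, Cnn1 and Lmod1), none of which was at 0 in any library. Their summed level was 3458 to 4495 in set 076 and 477 to 843 in set 045. Other tissue was present as well. The brown fat markers Ucp1 and Cidea summed to 7346 in D1IA and 2030 in G1IA of set 076. In that set 6 skeletal muscle markers summed to 4421 in D1IA and 10.2 in G2IA, and parathyroid Pth was at 932 and 0. The 3 plasma cell markers there summed to 322 and 553 with antibody and 5067 and 9374 with IgG. In set 045 they summed to 238 and 83.0 with antibody and 806 and 50.7 with IgG.

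On this scale the 7 genes ran from one of the better expressed to one near the middle of the 21721 protein-coding genes. Mib1, the main ligase of Notch ligands in mice, was highest in every library, at the 90.2nd to 94.8th percentile of those genes. Mfng was lowest in every library but 1, at the 43.1st to 62.0th percentile. In set 076 the levels of Mib1 (76.5 to 116 on the protein-coding scale) lay above those of Poglut1 (33.0 to 44.0), and these lay above those of the other 5 genes. Mib2, Lfng, Rfng and Pofut1 overlapped one another between 13.4 and 30.3, and Mfng lay below them at 4.16 to 7.54. In set 045 the order was Mib1 (112 to 151), Mib2 (64.7 to 84.6), Rfng (37.7 to 70.7), Lfng (30.5 to 43.9), Poglut1 (17.9 to 35.2), Pofut1 (17.9 to 30.1) and Mfng (9.33 to 18.4) by mean level. There Mib1 stood clear of Mib2, while every later neighbour pair overlapped.

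**Figure D1:**
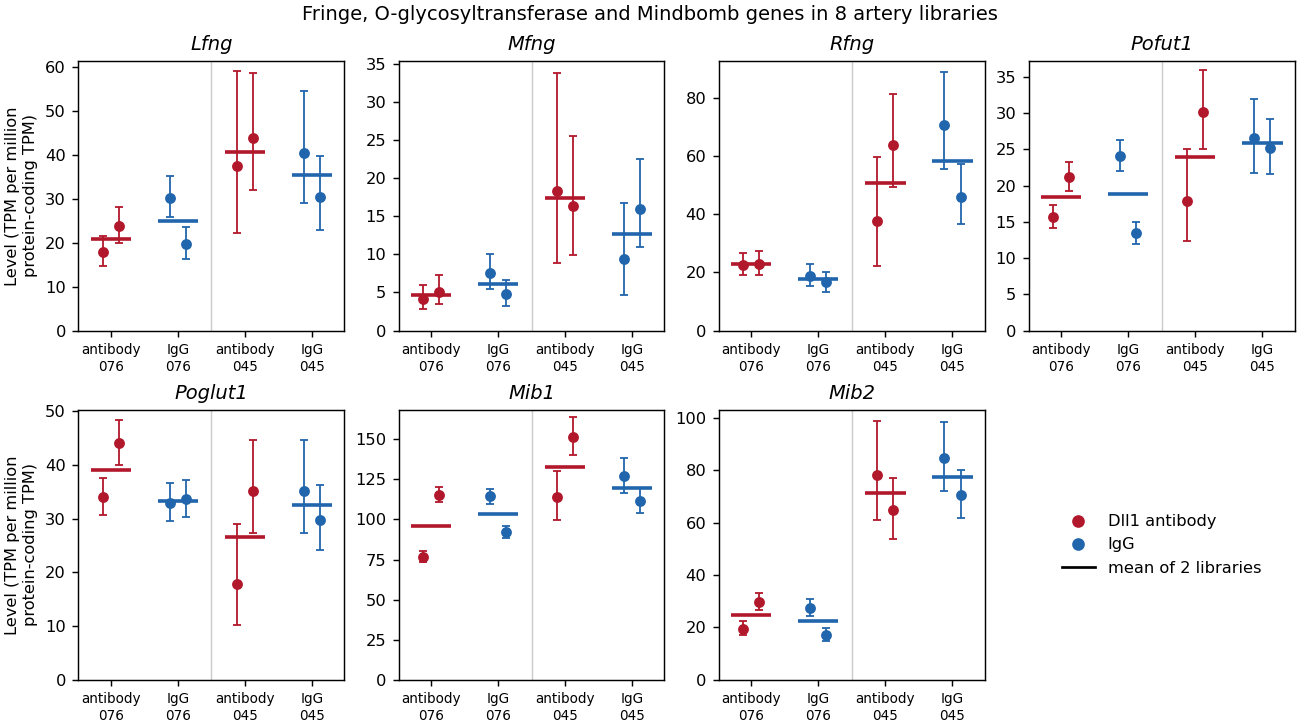
Level of each gene on the protein-coding scale (vertical axis, linear from 0) in the 4 antibody (red) and 4 IgG (blue) libraries by set; points are libraries with exact 95% Poisson intervals of their reads, and lines are means of 2 libraries. Mib2 sits at 17.2 to 29.8 in set 076 and at 64.7 to 84.6 in set 045, with antibody and IgG libraries mixed within each set.

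Lfng, the Fringe enzyme best known from somite formation, was at 17.9 and 23.8 on the protein-coding scale in the antibody libraries of set 076, against 30.3 and 19.8 in its IgG libraries. In set 045 it was at 37.5 and 43.9 with antibody, against 40.4 and 30.5 with IgG. The treatments overlapped in both sets, and the 4 antibody libraries averaged 30.8 ± 12.0, against 30.2 ± 8.41 in the 4 IgG libraries (SD, n = 4 each). These levels rest on 110 and 131 reads with antibody and 163 and 118 with IgG in set 076, and on 18 and 45 with antibody and 42 and 54 with IgG in set 045. The exact Poisson interval of the level in antibody library D1IA of set 045 ran from 22.2 to 59.2, which covers counting error only and takes in all the other Lfng levels of that set.

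Mfng, the Fringe enzyme known mainly from blood cells, was at 4.16 and 5.13 with antibody and 7.54 and 4.74 with IgG in set 076. In set 045 it was at 18.4 and 16.4 with antibody and 9.33 and 15.9 with IgG. The antibody libraries of set 045 were thus both above its IgG libraries, by a margin that rests on 10 and 19 reads against 11 and 32. In set 076 the treatments overlapped, and over both sets the level averaged 11.0 ± 7.40 with antibody and 9.39 ± 4.76 with IgG (SD, n = 4 each).

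Rfng, the Fringe enzyme that in cell assays raises the answer to both Dll1 and Jag1, was at 22.7 and 22.8 with antibody and 18.7 and 16.6 with IgG in set 076. Both antibody libraries of that set were above both IgG libraries. In set 045 the level was 37.7 and 63.9 with antibody and 70.7 and 46.0 with IgG, where the treatments overlapped. The average was 36.8 ± 19.4 with antibody and 38.0 ± 25.6 with IgG (SD, n = 4 each).

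Within the Fringe family, the shares of the summed TPM do not depend on the scale. Lfng took 39.9% and 46.0% of Fringe TPM with antibody and 53.6% and 48.2% with IgG in set 076, so its antibody libraries were both lower. In set 045 the same share was 40.1% and 35.4% with antibody and 33.6% and 33.0% with IgG, so its antibody libraries were both higher. The share of Rfng ran the other way in set 076, at 50.8% and 44.1% with antibody and 33.1% and 40.3% with IgG. In set 045 the Rfng share overlapped between treatments, at 40.3% and 51.4% with antibody and 58.7% and 49.8% with IgG. The shares were not tested between treatments. By level on the protein-coding scale, 19.0% of all genes separated the treatments without overlap in set 076, and 35.0% in set 045. That background is of levels, and none was counted for shares within a family. The shares in antibody library D1IA of set 045 rest on 18 reads of Lfng, 10 of Mfng and 18 of Rfng. Mfng held 7.75% to 19.6% of Fringe TPM over the 8 libraries. The sum of the Fringe genes was 0.316 to 0.636 of the summed TPM of the 4 Notch receptors.

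Pofut1, the enzyme that puts the O-fucose on which Fringe acts, was at 15.6 and 21.2 with antibody and 24.1 and 13.4 with IgG in set 076. In set 045 it was at 17.9 and 30.1 with antibody and 26.5 and 25.1 with IgG. The antibody values lay inside the IgG values in set 076 and around them in set 045, and the averages were 21.2 ± 6.36 with antibody and 22.3 ± 5.98 with IgG (SD, n = 4 each). Its levels are per a merged exon length of 9912 bases, while its longest annotated transcript has 5600, so they would be higher per transcript base. The same holds for Poglut1 (4658 and 2922 bases), Mfng (2839 and 1865) and Mib2 (4724 and 3642), but hardly for Lfng (2505 and 2305) or Rfng (2489 and 2467). The order of the genes by level and the ratios between them therefore depend on the lengths used.

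Poglut1, which adds the O-glucose, was at 34.0 and 44.0 with antibody and 33.0 and 33.6 with IgG in set 076. In set 045 it was at 17.9 and 35.2 with antibody and 35.2 and 29.8 with IgG. Both antibody libraries of set 076 were above its IgG libraries, the lower one by less than its counting interval, and in set 045 the treatments overlapped. It averaged 32.8 ± 10.9 with antibody and 32.9 ± 2.26 with IgG (SD, n = 4 each). The ratio of Poglut1 to Pofut1 TPM was 2.17 and 2.08 with antibody and 1.37 and 2.50 with IgG in set 076, and 1.00 and 1.17 with antibody and 1.33 and 1.18 with IgG in set 045.

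Mib1 was at 76.5 and 116 with antibody and 114 and 92.3 with IgG in set 076. In set 045 it was at 114 and 151 with antibody and 127 and 112 with IgG. The treatments overlapped in both sets, and the averages were 114 ± 30.6 with antibody and 111 ± 14.4 with IgG (SD, n = 4 each). It was the best counted of the 7 genes, with 1950 to 2633 reads per library in set 076 and 227 to 819 in set 045.

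Mib2, a related ligase that mice can lack without an evident defect in development, was at 19.6 and 29.8 with antibody and 27.5 and 17.2 with IgG in set 076. In set 045 it was at 78.4 and 64.7 with antibody and 84.6 and 70.7 with IgG. Treatments overlapped in both sets, while no library of set 076 came near any library of set 045. The average was 48.1 ± 27.9 with antibody and 50.0 ± 32.7 with IgG (SD, n = 4 each). The ratio of Mib1 to Mib2 TPM was 3.91 and 3.88 with antibody and 4.16 and 5.37 with IgG in set 076, and 1.46 and 2.34 with antibody and 1.50 and 1.58 with IgG in set 045. Mib1 thus exceeded Mib2 in every library, by more in set 076. The GC content of the longest transcript, which moved with the sets as described below, was 43.4% for Mib1 and 61.1% for Mib2. The log2 set difference, 076 minus 045, was -0.35 for Mib1 and -1.65 for Mib2. On values corrected for GC content it was -0.39 and -0.80 in that order. The summed TPM of the Mindbomb genes was 0.921 to 1.48 of the summed TPM of the Delta and Jagged ligands.

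**Figure D2:**
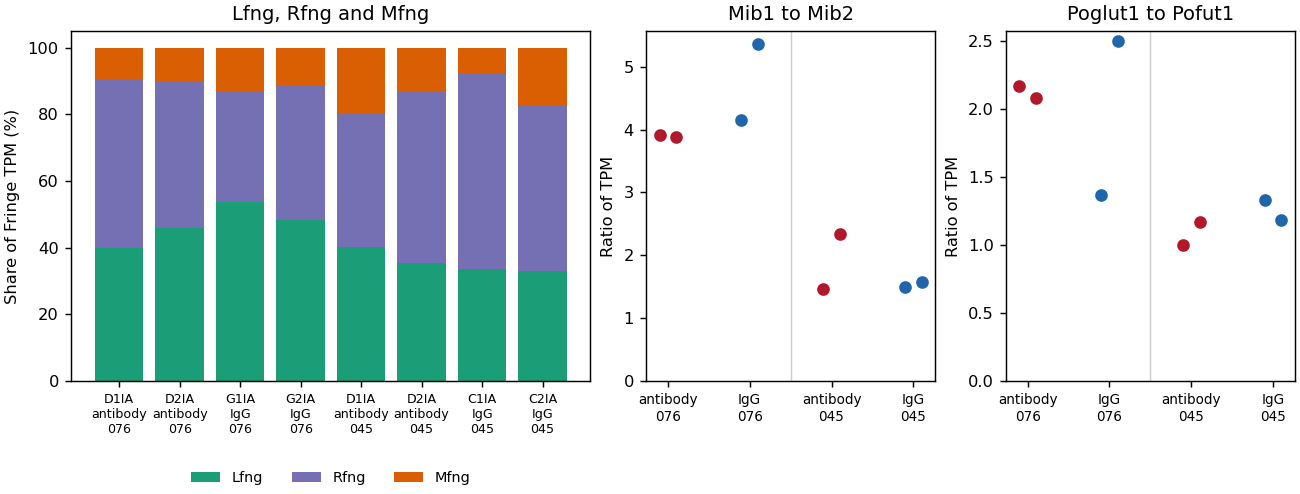
Left, share of each Fringe gene in the summed Fringe TPM (percent, bars) in each library; middle and right, ratio of Mib1 to Mib2 TPM and of Poglut1 to Pofut1 TPM, 1 point per library, antibody in red and IgG in blue. The Mib1 to Mib2 ratio is 3.88 to 5.37 in set 076 and 1.46 to 2.34 in set 045, and the Poglut1 to Pofut1 ratio is 1.37 to 2.50 in set 076 and 1.00 to 1.33 in set 045. These ratios are not corrected for transcript GC content, which moved with the sets.

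The first comparison asked whether the Dll1 antibody moved any of these genes against IgG. None of the 7 was called, and their average differences were small. Over both sets, with the set as a term, limma on log2(value + 1) called 0 of 18170 tested genes at an adjusted p under 0.05, that is 0% in either direction, with 278 genes at an unadjusted p under 0.05. All 7 genes passed the filter on low values, a mean of at least 1 on the protein-coding scale. Their log2 differences, antibody minus IgG, ran from -0.07 for Poglut1 to 0.08 for Mfng, with 4 positive and 3 negative and a median of 0.01, beside a median of -0.07 over all genes tested. limma's adjusted p was 1.00 for each of the 7 (two-sided, Benjamini-Hochberg). The 95% intervals were wide. That of Mib1, a difference of 0.01 (SE 0.21), ran from -0.48 to 0.49. That of Lfng, a difference of -0.02 (SE 0.23), ran from -0.55 to 0.52. The widest was that of Mfng, a difference of 0.08 (SE 0.34), from -0.70 to 0.85, and the other 4 had standard errors of 0.23 to 0.27. In bulk tissue, fewer cells of a type and less RNA per cell cannot be told apart, for this comparison and those that follow.

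Within set 076 alone, limma called 2 of 18170 genes, both lower (0.0110%), none of them among the 7, whose adjusted p was 1.00 each. Rfng had the largest of the 7 differences there, 0.36 (SE 0.35), followed by Mfng at -0.32 (SE 0.46), Lfng at -0.24 (SE 0.33) and Poglut1 at 0.21 (SE 0.36). Rfng and Poglut1 were the 2 of 7 genes whose antibody libraries both lay above both IgG libraries, where 7.99% of all genes did so and 11.0% lay below, 19.0% in either direction. Within set 045, limma called 0 genes (0%), with 1452 at an unadjusted p under 0.05, and limma's adjusted p of the 7 genes was 0.708 to 0.930. Mfng had the largest difference there, 0.47 (SE 0.46), and was the only one of the 7 whose treatments did not overlap, where 14.2% of all genes lay higher without overlap and 20.8% lower, 35.0% in either direction. Poglut1, higher in set 076, had a difference of -0.35 (SE 0.36) in set 045.

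None of the 7 separated antibody from IgG in both sets, which 2.11% of all genes did, 0.660% higher and 1.45% lower in both. Whether the antibody difference itself differed between the sets, 076 minus 045, was tested by an interaction term, which called 0 genes (0%), with 924 at an unadjusted p under 0.05. For the 7 genes that term ran from -0.79 (SE 0.65) for Mfng to 0.57 (SE 0.50) for Rfng, at a limma adjusted p of 0.835 to 0.971. The 7 differences all had opposite signs in the sets on the protein-coding scale, but not in every other setting. In deposited TPM Lfng and Mib1 were negative in both, and with limma-voom on recovered reads Rfng and Pofut1 were positive in both. Mib2 was positive in both without D2IA and C1IA of set 045, and Pofut1 was negative in both on GC-corrected values. Leaving out 1 library gave further cases. The share of all genes with opposite signs was not counted, and none of the opposite signs passed the interaction test.

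**Figure D3:**
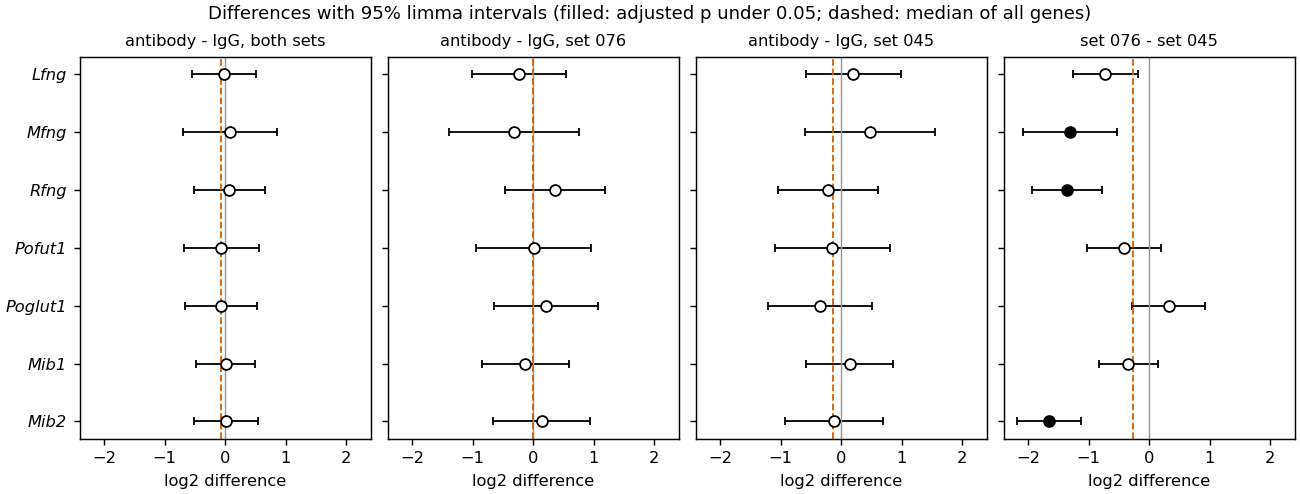
log2 differences on the protein-coding scale (horizontal axis) with 95% limma intervals for the 7 genes, antibody minus IgG over both sets and within each, and set 076 minus set 045; filled points had an adjusted p under 0.05 and the dashed line is the median of all genes. All treatment points are open, and Mib2 (-1.65), Rfng (-1.36) and Mfng (-1.31) are filled in the set panel, where deposited TPM would give positive values for Mib2 (1.42) and Rfng (1.48).

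The rest of the pathway was read from lists of other genes with known roles, on the same scale and test. No listed gene was called under the antibody. Of 5 Notch ligands 4 were tested, all but Dll3, with a median log2 difference of 0.07, and Dll1 itself stood at 0.11 (SE 0.36). The 4 receptors had a median of 0.05, with Notch4, a receptor mainly of endothelium, at 0.53 (SE 0.32). The 6 target genes had a median of -0.22, with 4 negative and 2 positive. They ran from -0.90 for Dtx1 and -0.89 for the transcriptional repressor Hes1 (SE 0.33, unadjusted p = 0.0275, limma adjusted p = 1.00) to 0.25 for Nrarp and 0.46 for Hey1, another repressor. Of the 7 other enzymes that build Notch O-glycans, with a median of 0.04, Kdelc1, an O-glucosyltransferase, was at -0.23, and the xylosyltransferases Gxylt2 and Gxylt1, which extend the O-glucose, were at 0.31 and 0.16. The 5 genes that supply GDP-fucose, the donor for Pofut1, had a median of 0.02. Among them Tsta3 and Gmds, which act in its synthesis from GDP-mannose, were at -0.42 and 0.19, and Fuk, the fucose kinase of the salvage route, was at -0.26. Pofut2 and B3glct, which build the matching glycan on thrombospondin repeats, were at 0.16 and 0.17. Of 8 genes for ligand ubiquitination and endocytosis, with a median of -0.04, Dnm2, a dynamin that cuts off vesicles, was at 0.27, Usp9x, a deubiquitinase, at -0.27 and Eps15, an endocytic adaptor, at -0.18.

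**Figure D4:**
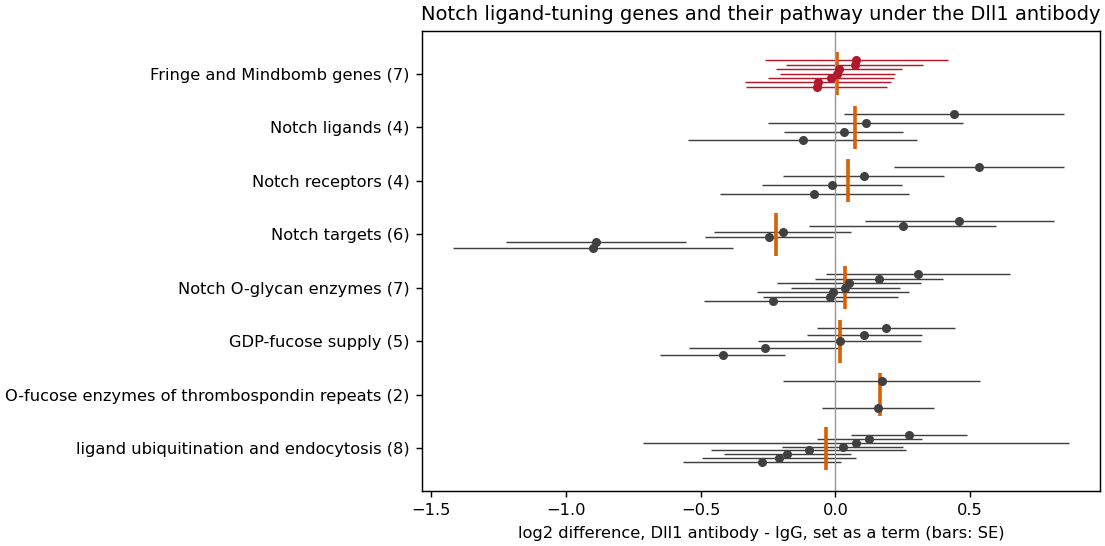
log2 differences, antibody minus IgG with the set as a term (horizontal axis; bars are standard errors), for the 7 genes (red) and 7 lists of related genes (grey), with list medians in orange and the number tested in brackets. The 7 genes span -0.07 to 0.08, and the lowest points are the targets Dtx1 (-0.90) and Hes1 (-0.89), none of them past the test.

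The second comparison placed the 7 genes on the difference between the library sets, with treatment as a term. Mib2, Rfng and Mfng were lower in set 076 than in set 045 on the protein-coding scale, while in deposited TPM Mib2 and Rfng were higher there and Mfng was not tested. The other 4 did not pass the test on the protein-coding scale. limma called 1729 of 18170 genes (9.52%), 486 higher in set 076 (2.67%) and 1243 lower (6.84%), and 3 of the 7 were among the lower ones. Mib2 averaged 23.5 ± 6.07 on the protein-coding scale in set 076 and 74.6 ± 8.72 in set 045, a log2 difference of -1.65 (SE 0.23, limma adjusted p = 0.0101). Rfng averaged 20.2 ± 3.11 in set 076 and 54.6 ± 15.3 in set 045, a log2 difference of -1.36 (SE 0.25, limma adjusted p = 0.0215). Mfng averaged 5.39 ± 1.49 in set 076 and 15.0 ± 3.92 in set 045 (SD, n = 4 each throughout), a log2 difference of -1.31 (SE 0.34, limma adjusted p = 0.0476). Lfng was at -0.72 (SE 0.23, limma adjusted p = 0.0864), Pofut1 at -0.41 (adjusted p = 0.342), Mib1 at -0.35 (adjusted p = 0.313) and Poglut1 at 0.32 (adjusted p = 0.449), the only positive value.

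For Lfng, Mfng, Rfng and Mib2 no library of set 076 reached the lowest of set 045, where 14.6% of all genes lay lower without overlap and 6.41% higher, 21.0% in either direction. The median of all genes was -0.27 on this scale. The direction is that of the protein-coding scale: in TPM as deposited, where the sets differ by a median of 2.17 over all genes, the differences were positive, 1.42 for Mib2 and 1.48 for Rfng, while Mfng was under the filter. Relative to the median of all genes Mib2 stood at -1.38 on the protein-coding scale, -1.35 with median-ratio scaling and -0.75 in deposited TPM, and Rfng at -1.09, -1.06 and -0.69 in that order.

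Leaving out 1 library in turn moved the differences little, but it ended calls. Mfng then ran from -1.53 to -1.18, and its call was lost without any 1 of the 8 libraries, at a limma adjusted p of 0.0558 to 0.163. Rfng ran from -1.56 to -1.18, and its call was lost without D1IA or G2IA of set 076 and without D2IA or C1IA of set 045, at up to 0.0882. Mib2 ran from -1.80 to -1.50, and its call was lost only without D1IA of set 076, at 0.0522. Depth and composition moved with the sets. Reads on the 7 genes summed to 3225 to 4142 per library in set 076 and 394 to 1496 in set 045. Of the smooth muscle markers given above, 5 of 5 were called higher in set 076, beside 2.67% of all genes. So were 2 of 3 fibroblast markers (Lum and Pdgfra, not Dpt), with sums of 2039 to 5147 in set 076 and 375 to 753 in set 045. So were 2 of 4 heart muscle markers (Myl7 and Myh6, not Myl4 or Nppa), with sums of 136 to 858 in set 076 and 3.08 to 158 in set 045, where 3 of the 4 were at 0 in D1IA and in D2IA. Of the brown fat markers 1 of 2, Cidea and not Ucp1, was called higher, with sums of 2030 to 7346 in set 076 and 218 to 1743 in set 045. Of 5 blood endothelium markers (Pecam1, Cdh5, Vwf, Kdr and Tie1, none at 0) 1, Tie1 (-1.23), was called lower, beside 6.84% of all genes, and their sum was 426 to 697 in set 076 and 412 to 910 in set 045. The part of depth and of these cell types in the set difference was not tested.

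The base composition of the transcripts also moved with the sets. Across 18110 genes with a known transcript, the set difference and the GC content of the longest transcript had a Spearman correlation of -0.32, given as a description, since genes share the libraries. The GC content was 58.8% for Lfng, 58.1% for Mfng, 59.2% for Rfng and 61.1% for Mib2, all in the GC-richest of 5 equal classes of genes, where the median set difference was -0.74 and 19.7% of genes were called lower. Poglut1 at 46.4% and Mib1 at 43.4% lay in classes of lower GC content, with medians of -0.10 and 0.04, and Pofut1 at 51.5% in a class with a median of -0.44. Within the GC-richest class, Mib2 was at the 12.0th percentile of the set difference, Rfng at the 20.0th, Mfng at the 22.1st and Lfng at the 50.6th. On values corrected for GC content, an alternative chosen after seeing the data, the set difference was -0.80 for Mib2 (limma adjusted p = 0.0675), -0.57 for Rfng (adjusted p = 0.172), -0.58 for Mfng (adjusted p = 0.304) and 0.05 for Lfng (adjusted p = 0.893), and none of the 7 was called. Calls were also fewer over all genes there, 369 of 18110, with 249 higher and 120 lower, beside 1729 of 18170 without the correction.

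**Figure D5:**
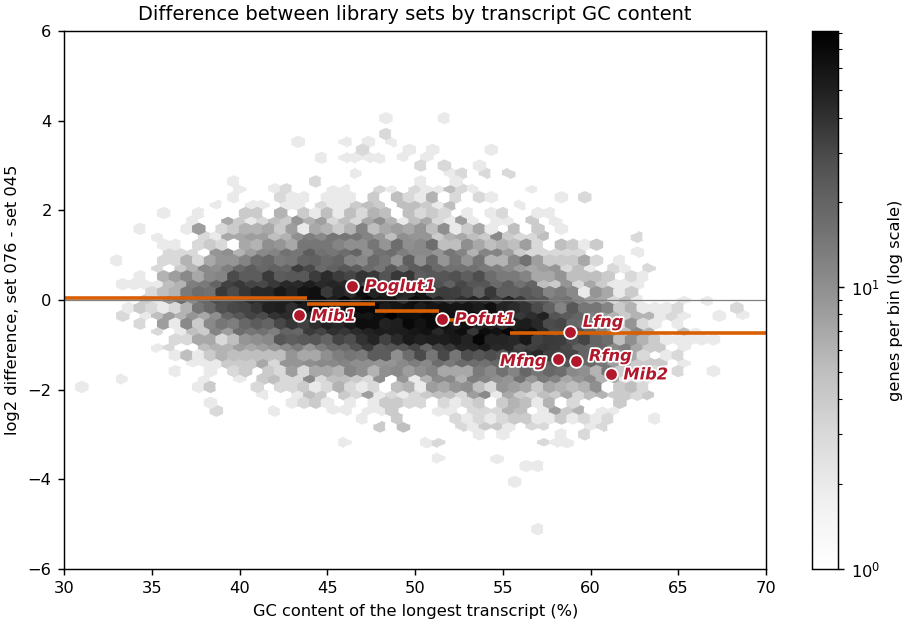
log2 difference of set 076 minus set 045 on the protein-coding scale (vertical axis) against GC content of the longest transcript in percent (horizontal axis); grey hexagons count genes on a log scale, orange lines are medians of 5 GC classes, and red points are the 7 genes. Lfng lies on its class median of -0.74, and Mfng, Rfng and Mib2 lie below it.

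In the same comparison, on the protein-coding scale, where 6.84% of all genes and 19.7% of the GC-richest class were called lower in set 076, 3 of 8 genes of ligand ubiquitination and endocytosis were lower, Epn1 (-1.23, an endocytic adaptor), Dnm2 (-0.85) and Neurl1b (-1.40, another ubiquitin ligase of Notch ligands). Of the GDP-fucose genes 1 of 5, Fuk (-1.39), was lower, and of the 7 other O-glycan enzymes none was called. Of the receptors 3 of 4 were lower, Notch4 (-2.38), Notch3 (-1.37) and Notch1 (-1.08), as were the ligands Jag2 (-2.28) and Dll4 (-1.68), 2 of 4 tested. In deposited TPM the direction turns: the mean was higher in set 076 for 9 of these 9 genes, as for Notch4, whose TPM was 1.30 to 3.70 in set 076 but 0.606 to 1.26 in set 045. That is the direction of nearly all genes in deposited TPM, where 10888 of 11468 tested were called higher in set 076 and 10 lower. On the GC-corrected values only Notch4 (-1.52) of these calls held, and Tsta3 (1.19) was called higher. Over all 18110 genes tested on those values, 120 were called lower and 249 higher.

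Finally, the pattern of each gene over the 8 libraries, after removing the mean of each set, was compared with the other genes. The most similar pair among the 7 was Lfng and Mib1 (Pearson's r = 0.87), followed by Rfng and Poglut1 (r = 0.84), while Mfng and Rfng ran in opposite directions (r = -0.62). Among 10944 named genes with a mean of at least 10 on the protein-coding scale, Lfng was most like Tmem206 (r = 0.994), Aebp1 (0.992) and Smarca2 (0.991). Mfng was most like Nradd, Parp3 and Mylip, with r of 0.996 to 0.985. Rfng was most like Neurl1a, Dusp19 and Zfp24, with r of 0.971 to 0.947, and Neurl1a is itself a ubiquitin ligase of Notch ligands. The nearest genes were Lacc1, Wdr13 and Lrrfip2 for Pofut1 (0.986 to 0.980), Zrsr1, Psmd13 and Rerg for Poglut1 (0.992 to 0.989), Afap1l2, Fbxw17 and Tgfb1i1 for Mib1 (0.991 to 0.986), and Vps9d1, Rptor and Zfp384 for Mib2 (0.992 to 0.978). These values describe 8 libraries that share sets, depth and tissue makeup, and were picked as the highest of many, so they carry no test.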

How the data were processed

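RNA sequencing measured gene expression in 8 libraries of brachiocephalic artery, 4 per treatment. The authors deposited TPM for 49585 genes, 1 column per library, not pooled. A human build, hg19, is named per the submitters' processing notes, though the table lists mouse Ensembl identifiers. The labels name no aligner or counting tool. Column names give treatment and set but no sample number, so columns were replicates of their group.

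Gene types and exon lengths came from GENCODE M21. TPM times the M21 length gave whole reads for 19705 of the 25386 genes above 0 (relative tolerance 1e-05). The other 5681, Mib1 among them, were given the smallest length that made their reads whole in all libraries. Their reads are thus whole by construction. The derivation returned the M21 length for 99.6% of 1251 genes checked, which all fitted that length. It was not checked on genes with few reads. Depth per library, and so the counting error, is given above. TPM were rescaled to 1000000 over nuclear protein-coding genes. limma 3.58.1 in R 4.3.3 (trended, robust) tested log2(value + 1), which understates changes of low genes, keeping genes whose mean reached 1. p-values were two-sided and adjusted by Benjamini-Hochberg over all genes, with a threshold of 0.05. The within-set tests shared the spread of all 8 libraries. The script was tested on simulated data. None of the 7 genes overlapped an exon of another gene in M21.

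Named genes were the 7 members, Notch ligands, receptors and targets, up to 3 genes of smallest p in each further list, and 3 nearest genes by correlation. Of the further lists, genes past the test between sets were also named, after their values were seen. The members, lists and tests were chosen with earlier results of these data known. Alternatives were other scales, pseudocounts, filters, weights, limma-voom on recovered reads, GC correction and leaving out libraries.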

Additional observations from a re-analysis of the deposited data

Results flagged for a closer look

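Of 32 groups of 4 libraries checked (levels, shares and ratios of the 7 genes by treatment), 1 held a library far from the others. The ratio of Poglut1 to Pofut1 TPM was 2.50 in IgG library G2IA of set 076, against 1.37 in G1IA of the same set and 1.33 and 1.18 in the IgG libraries of set 045. Its gap to the nearest value was 0.860 of the range of the group, above Dixon's critical value of 0.829. Written the other way, Pofut1 to Poglut1, the same group is not marked, with a gap of 0.744. The group also joins sets that differ in this ratio: the antibody libraries of set 076 were at 2.17 and 2.08, near G2IA, and within that set G1IA lay apart. Chance alone marks about 1 in 20 such groups.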

How the results depend on the processing

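No paired analysis was possible because the columns of the table carry no replicate numbers of the labels, so the replicate block could not be fitted. The treatment comparison over both sets called 0 genes in 10 of 11 alternatives and when each library was left out, and 1 gene in deposited TPM with the set as a term. Within set 076 the count of 2 became 78 in deposited TPM, 0 with a pseudocount of 0.25, 7 with array weights and 0 with limma-voom, and 0 to 4 without 1 library. Within set 045 the count of 0 became 1 with a pseudocount of 0.25, and 0 to 65 without 1 library, the 65 without D2IA of set 045. The interaction called 134 genes in deposited TPM and 0 to 5 without 1 library. The set comparison called 10898 genes in deposited TPM, 913 with no filter, 6040 with array weights and 369 on GC-corrected values. It called 407 without both libraries that hold Xist reads, and 145 to 3008 without 1 library (145 without D1IA and 163 without G2IA of set 076). The libraries with Xist reads, that is above 1 TPM, were D2IA (antibody) and C1IA (IgG), both of set 045. The labels give no sex, and the part of sex in the set difference was not tested. The causes were not tested.

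None of the 7 genes was called for treatment under any alternative run. Signs of these small treatment differences turned over. In deposited TPM they were -0.052 for Rfng, -0.27 for Mib1 and -0.19 for Mib2, with or without the set as a term. With median ratios Lfng was at 0.012. With array weights Mfng was at -0.10, Pofut1 at 0.12, Poglut1 at 0.028 and Mib1 at -0.15. With limma-voom Mfng was at -0.075, Pofut1 at 0.037 and Poglut1 at 0.13. Without the libraries with Xist reads Mfng was at -0.15 and Mib1 at -0.074. On GC-corrected values Lfng was at 0.011 and Poglut1 at 0.028. Leaving out 1 library gave -0.14 to 0.14 for Lfng, -0.14 to 0.27 for Mfng, -0.021 to 0.28 for Rfng, -0.24 to 0.094 for Pofut1, -0.20 to 0.17 for Poglut1, -0.10 to 0.15 for Mib1 and -0.14 to 0.12 for Mib2.

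Within set 076 Pofut1 was at -0.0071 on GC-corrected values, and without 1 library Lfng ranged from -0.53 to 0.056, Pofut1 from -0.39 to 0.41, Mib1 from -0.42 to 0.17 and Mib2 from -0.18 to 0.47. Within set 045 deposited TPM gave -0.24 for Lfng and -0.48 for Mib1, limma-voom 0.049 for Rfng and 0.044 for Pofut1, and leaving out the libraries with Xist reads 0.15 for Mib2. Without 1 library Rfng ranged from -0.59 to 0.16, Pofut1 from -0.51 to 0.22, Poglut1 from -0.82 to 0.12, Mib1 from -0.062 to 0.34 and Mib2 from -0.25 to 0.018. The interaction was 0.093 for Lfng and 0.43 for Mib1 in deposited TPM, -0.0095 for Pofut1 with limma-voom and -0.0023 for Mib2 without the libraries with Xist reads. Without 1 library it ranged from -0.24 to 0.56 for Pofut1, from -0.56 to 0.027 for Mib1 and from -0.062 to 0.59 for Mib2.

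Between the sets, deposited TPM gave 1.86 for Lfng, 1.48 for Rfng, 1.79 for Pofut1, 2.85 for Mib1 and 1.42 for Mib2, and GC-corrected values 0.049 for Lfng. The Mfng call was also lost with median ratios (limma adjusted p = 0.0793), with no filter (0.0672) and without the libraries with Xist reads (0.0926), as was that of Rfng in the last case (0.0957). Array weights called Lfng lower (-0.85, adjusted p = 0.0220). Depth limits the low genes of set 045, where Mfng rests on 10 to 32 reads per library.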

Other observations

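Libraries of the same set and treatment also differed among themselves, as did their markers of fat and of macrophages, a pattern noticed after the values were seen. The pairs are ordered here by the brown fat markers Ucp1 and Cidea. In each of the 4 pairs most of the 7 genes were lower, on the protein-coding scale, in the library with more brown fat marker RNA. The counts depend on that scale and were not repeated on median ratios. Median-ratio factors, by which levels would be divided, were 0.774 in D1IA and 1.05 in D2IA of set 076. They were 0.815 in G2IA and 0.982 in G1IA of that set. In set 045 they were 1.02 in D1IA and 1.20 in D2IA, and 1.19 in C2IA and 1.14 in C1IA. The antibody pair of set 076 had summed marker levels of 7346 in D1IA and 4051 in D2IA, and 7 of 7 genes were lower in D1IA, as were 73.4% of all tested genes. Its IgG pair had 7011 in G2IA and 2030 in G1IA, and 6 of 7, all but Poglut1, were lower in G2IA, as were 69.1% of all genes. In set 045 the antibody pair had 1743 in D1IA and 273 in D2IA, with 5 of 7 lower in D1IA, all but Mfng and Mib2, beside 58.3% of all genes. The IgG pair there had 1234 in C2IA and 218 in C1IA, with 6 of 7 lower in C2IA, all but Mfng, beside 49.5% of all genes. Of 16 marker lists, the white fat markers (Adipoq, Plin1 and Lep) were the only others higher in the same library of all 4 pairs, with sums of 2157 in D1IA and 1537 in D2IA, 2156 in G2IA and 1122 in G1IA in set 076, and 1016 in D1IA and 149 in D2IA, 1420 in C2IA and 317 in C1IA in set 045. The macrophage markers (Cd68, Adgre1, Csf1r, Lyz2 and C1qa) were lower in that library in all 4 pairs, with sums of 5616 in D1IA and 7532 in D2IA, 5110 in G2IA and 11280 in G1IA in set 076, and 7630 in D1IA and 11226 in D2IA, 4369 in C2IA and 8076 in C1IA in set 045. The part of fat or macrophage content in the levels of these genes was not tested.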
